A study of Mus musculus with 9 samples.

Results

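Ion channel subunit genes were followed in RNA sequencing of mouse cerebral cortex at embryonic day 16.5. Genes were taken from the table by symbol: sodium channel subunits (Scn followed by a number and a or b), calcium channel subunits (Cacna, Cacnb and Cacng), potassium channel subunits (Kcn with a letter from a to v and a number) and the 4 hyperpolarization-activated channels (Hcn). These rules took 84 of 14670 genes: 8 sodium, 22 calcium, 50 potassium and 4 HCN. All 84 passed the filter on low values (a mean of at least 0.5 CPM, reads scaled to library size, over the libraries), which every gene of the table passed.

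The study compared cortex lacking either of 2 proteins of planar cell polarity, the Frizzled receptor Fzd3 or the atypical cadherin Celsr3, with control cortex, using 3 libraries per genotype. The labels give the genotypes as Control +/+, Fzd3 -/- and Celsr3 -/-, on no treatment, whereas the methods describe controls as wild-type or heterozygous littermates and both lines as a mixed C57Bl/6 and CD1 background. The Fzd3 allele lacks exon 3 and both mutants are constitutive, so no cell type of the cortex is spared. Neither source says whether embryos were pooled, and where libraries did not come from separate embryos the p-values measure only the spread between these samples. The step between low CPM values placed 39857305 to 69600589 reads on the listed genes per library. The Celsr3 library of replicate 4 stood apart in its meningeal fibroblast markers, which summed to 195 CPM against 27.5 to 53.6 CPM in the other 8 libraries.

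Voltage-gated channels open when a charged segment of the pore-forming subunit moves with the membrane potential. Sodium channels carry the upstroke of the action potential, calcium channels couple firing to secretion and gene expression, potassium channels repolarize the cell and HCN channels pass a depolarizing current at rest. Immature cortical neurons acquire these currents stepwise after they leave the cell cycle, whereas progenitors rest mainly on potassium leak. Auxiliary subunits do not form the pore but set how many channels reach the surface and how they gate.

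The name voltage-gated covers only part of what the symbols take. By textbook family, 47 of the 84 are pore-forming subunits with a voltage sensor or modifier subunits built like them: 13 sodium or calcium, 30 potassium and 4 HCN. Another 18 are auxiliary subunits, among them the 7 Cacng genes, most of which are better known as partners of glutamate receptors. The remaining 19 potassium channel genes are 7 inward rectifiers (Kcnj), 6 two-pore-domain leak channels (Kcnk) and 6 grouped as opened by intracellular ions (Kcnn, Kcnt and Kcnu). This grouping follows family names and not sequence, so it does not show that the last 6 lack a voltage sensor. Scn2a, the gene of a main axonal sodium channel, stood in the table under its older symbol Scn2a1, which the symbol rule does not take, and is given with the channel partners.

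Transcripts of the mutated genes were read first. Values for Celsr3 were 196, 243 and 214 CPM in the 3 control libraries, 253, 213 and 255 CPM in the Fzd3 mutants and 122, 139 and 118 CPM in the Celsr3 mutants. All 3 Celsr3 mutant libraries lay below the other 6 (log2 fold change -0.78 ± 0.09 SE, limma adjusted p = 0.00180, Celsr3 mutants against controls), so some transcript of the mutated gene was still counted. With the replicate number as a block the log2 fold change was -0.71 and limma no longer called it (adjusted p = 0.0699). Fzd3 was at 58.0, 67.7 and 46.9 CPM in the 3 control libraries, 46.5, 39.8 and 59.6 CPM in the Fzd3 mutants and 52.1, 61.1 and 54.8 CPM in the Celsr3 mutants. The Fzd3 mutant libraries overlapped the controls (log2 fold change -0.24 ± 0.15 SE, limma adjusted p = 0.240), and because the rest of the gene remains in an allele without exon 3, a gene-level value does not check this label. The adjusted p fell to 0.0457 without Fzd3 mutant replicate 3.

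In control cortex, channel genes spanned a wide range of levels. Per kb of exon, the calcium channel beta subunit Cacnb3 was highest of the 84, at 52.6 ± 0.856 CPM per kb (SD, n = 3). It was followed by the glutamate receptor partners Cacng7, at 40.4 ± 2.17 CPM per kb, and Cacng4, at 38.2 ± 1.12 CPM per kb. The SD ranges of these 2 overlapped, though neither mean lay within the SD of the other. Thus the 3 highest levels belonged to auxiliary subunits rather than to pores. Scn3b, a beta subunit of sodium channels, came next at 27.6 ± 1.46 CPM per kb.

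Among sodium channel pores, Scn3a, the channel known as the embryonic form, reached 9.37 ± 0.136 CPM per kb in controls. Scn8a, which later predominates at the axon initial segment, was at 3.32 ± 0.241 CPM per kb, and Scn1a, prominent in mature inhibitory neurons, at 1.56 ± 0.0817 CPM per kb. Among the pores named here, the order Scn3a, Scn8a, Scn1a was wider than the spread between control libraries at every step. Scn2a1 is not part of this order, because the symbol rule does not take it. Its control values, given in CPM with the channel partners, lay above the Scn8a mean of 52.4 CPM.

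Calcium channel pores were led by the T-type channel Cacna1h, at 12.8 ± 0.920 CPM per kb, and the N-type channel Cacna1b, at 12.4 ± 2.43 CPM per kb, whose values overlapped. Among potassium channels Kcnq3, a subunit of the M-current that restrains repetitive firing, reached 10.4 ± 0.923 CPM per kb, and the leak channel Kcnk2 9.15 ± 0.369 CPM per kb. Of the HCN channels, Hcn3 was highest at 6.55 ± 0.335 CPM per kb, above Hcn4 at 2.36 ± 0.0802 CPM per kb and Hcn2 at 1.81 ± 0.169 CPM per kb.

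**Figure D1:**
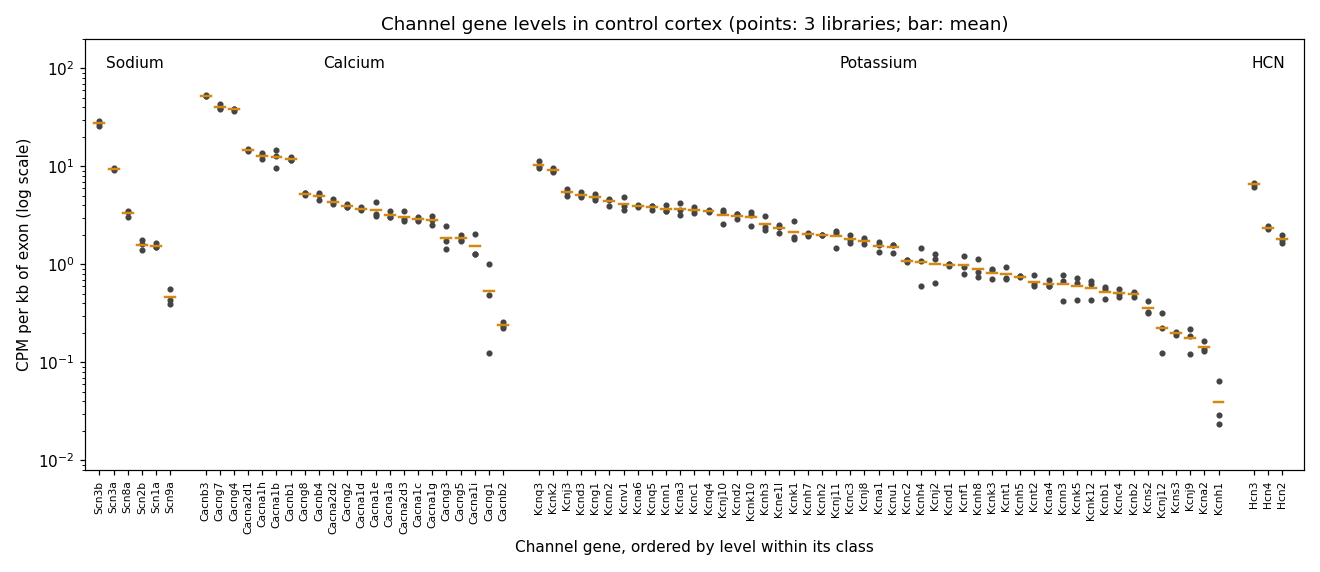
Level of 80 of the 84 channel genes in the 3 control libraries, in CPM per kb of exon on a log scale, by class and ordered by mean (orange bar). Levels ran from 52.6 for Cacnb3 to 0.0393 for Kcnh1.

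Channel genes were shifted upward in Fzd3 mutants against controls. Of the 84, 39 were higher and 4 lower in Fzd3 mutants than in controls at a limma adjusted p under 0.05, with 41 not past it. Among all 14670 genes, 15.0% were higher and 14.8% lower. The 39 include Kcnh1, which met the filter on low values only through the Fzd3 mutant libraries. The median log2 fold change was 0.27 over the channel genes and 0.00 over all genes. Without regard to any test, the 3 Fzd3 libraries lay wholly above the 3 controls for 46 channel genes, where 21.6% of all genes did so, and wholly below for 5, where 22.2% did. All fold changes are on the log2(CPM + 0.5) scale, which understates those of low genes. In whole tissue, fewer cells of a type and less RNA per cell cannot be told apart.

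Counts were then taken by class. In Fzd3 mutants 6 of 8 sodium, 11 of 22 calcium and 18 of 50 potassium genes rose, and HCN genes are given by name below. All 4 genes that fell, Kcnk5, Kcnn1, Kcnq3 and Kcng1, were potassium channel subunits. Median log2 fold changes were 0.41, 0.25 and 0.21 in that order. Neither median-of-ratios scaling nor quantile normalization changed the sign of a class median, though quantile normalization left 10 calcium and 14 potassium genes higher. Leaving out control replicate 3 raised the number of lower genes from 4 to 8.

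Summed over its members, each class was higher in every Fzd3 library than in every control. Sodium channel genes summed to 354, 343 and 365 CPM in controls and 489, 454 and 445 CPM in Fzd3 mutants. For calcium channel genes the sums were 1338, 1375 and 1379 CPM and 1624, 1502 and 1572 CPM. Potassium channel genes rose least in relative terms, from 901, 928 and 881 CPM to 1023, 978 and 996 CPM. The ratio of means was 1.43 for HCN, 1.31 for sodium, 1.15 for calcium and 1.11 for potassium genes. In Celsr3 mutants the same ratios were 0.995 for sodium, 0.998 for calcium and 0.983 for potassium genes, and HCN genes summed to 53.5, 50.5 and 47.0 CPM there. These sums are weighted to the most abundant genes and carry no test.

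**Figure D2:**
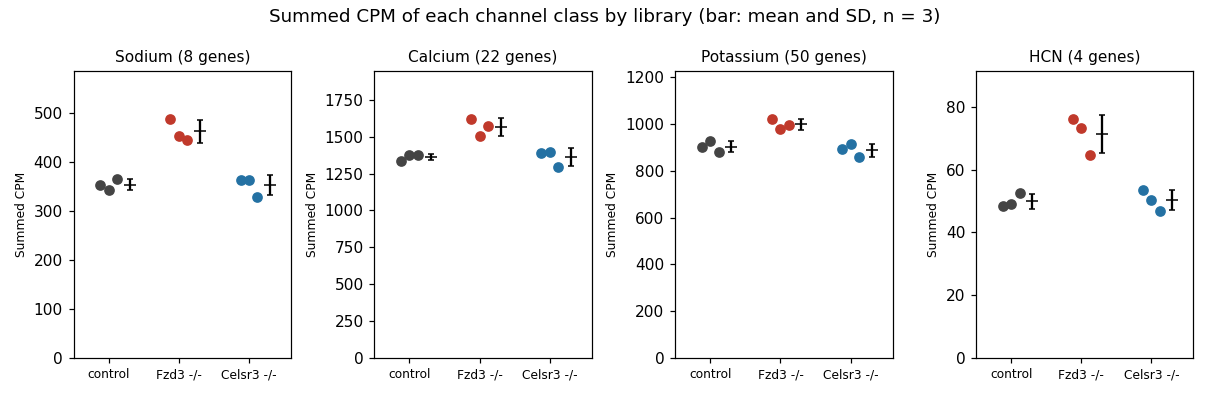
Summed CPM of each class in each library, with mean and SD (n = 3 per genotype), on axes that start at 0. Fzd3 mutant libraries lie above all controls in the 4 classes, with HCN sums of 76.3, 73.4 and 64.8 CPM against 48.3, 49.0 and 52.6 CPM in controls, while Celsr3 mutant libraries lie among or near the controls.

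Among sodium channels, pores and beta subunits both rose in Fzd3 mutants. Scn1a was at 18.4, 16.8 and 16.8 CPM in the 3 control libraries, 31.2, 25.6 and 24.1 CPM in the Fzd3 mutants and 21.5, 16.6 and 15.2 CPM in the Celsr3 mutants. Every Fzd3 mutant library exceeded the other 6 (log2 fold change 0.61 ± 0.12 SE, limma adjusted p = 0.00406). Scn3a, by far the more abundant pore per kb, was at 118, 115 and 117 CPM in the 3 control libraries, 150.3, 141 and 147 CPM in the Fzd3 mutants and 127, 119 and 108 CPM in the Celsr3 mutants. It rose by a smaller factor (log2 fold change 0.32 ± 0.06 SE, limma adjusted p = 0.00186), so the ratio of Scn1a to Scn3a CPM went from 0.149 ± 0.00586 in controls to 0.185 ± 0.0218 in Fzd3 mutants (SD, n = 3). In Celsr3 mutants the ratio was 0.150 ± 0.0167. Its value in Celsr3 mutant replicate 1 (0.169) lay above that in Fzd3 mutant replicate 3 (0.164). Scn9a, a pore best known from sensory neurons, rose as well (log2 fold change 0.73 ± 0.16 SE, limma adjusted p = 0.00546). Scn8a did not pass the threshold, with a log2 fold change of 0.15 ± 0.07 (SE).

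Beta subunits are membrane proteins that modulate sodium channel gating and also act in cell adhesion. Scn3b was at 151, 142 and 158 CPM in the 3 control libraries, 221, 210.0 and 189 CPM in the Fzd3 mutants and 143, 157 and 145 CPM in the Celsr3 mutants. The lowest Fzd3 library stood well above the highest of the other genotypes (log2 fold change 0.45 ± 0.06 SE, limma adjusted p = 0.000434). Scn2b rose too (log2 fold change 0.37 ± 0.10 SE, limma adjusted p = 0.0206), a call lost without control replicate 3 (adjusted p = 0.0659), Fzd3 mutant replicate 1 (0.0701) or Fzd3 mutant replicate 3 (0.0548). Scn1a, Scn3a and Scn9a lie in 1 cluster on chromosome 2, so they are not independent positions.

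Calcium channel genes were read by subunit. All 3 alpha2delta subunits, extracellular proteins that carry calcium channels to the surface and are bound by gabapentin in the case of Cacna2d1 and Cacna2d2, rose in Fzd3 mutants. Cacna2d3 was at 30.5, 24.0 and 25.4 CPM in the 3 control libraries, 39.7, 41.6 and 48.3 CPM in the Fzd3 mutants and 24.6, 26.6 and 22.9 CPM in the Celsr3 mutants. Its Fzd3 libraries did not overlap the other genotypes (log2 fold change 0.69 ± 0.10 SE, limma adjusted p = 0.000578). Cacna2d2 was at 36.5, 33.1 and 34.3 CPM in the 3 control libraries, 59.5, 54.1 and 54.5 CPM in the Fzd3 mutants and 33.0, 33.4 and 28.6 CPM in the Celsr3 mutants. This was the smallest adjusted p of all channel genes (log2 fold change 0.69 ± 0.07 SE, limma adjusted p = 7.88e-05). The more abundant Cacna2d1 moved by less (log2 fold change 0.31 ± 0.05 SE, limma adjusted p = 0.000553).

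Of the 4 beta subunits, which bind the channel from inside the cell, only Cacnb4 rose (log2 fold change 0.39 ± 0.07 SE, limma adjusted p = 0.00134). Cacnb3, the highest of the class, was at 209, 215 and 209 CPM in the 3 control libraries, 215, 210.2 and 208 CPM in the Fzd3 mutants and 214, 206 and 207 CPM in the Celsr3 mutants. The 3 genotypes overlapped, and the 95% interval of the log2 difference between Fzd3 mutants and controls ran from -0.08 to 0.08. Of the 7 Cacng genes 3 rose (2 under quantile normalization) and 4 did not pass. Cacng2, known as stargazin and a carrier of AMPA-type glutamate receptors, rose (log2 fold change 0.51 ± 0.08 SE, limma adjusted p = 0.00116), as did the more abundant Cacng4 (log2 fold change 0.21 ± 0.04 SE, limma adjusted p = 0.00545).

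Calcium channel pores were mixed. The T-type channel Cacna1g, which opens at low voltage, was at 25.8, 28.8 and 31.6 CPM in the 3 control libraries, 46.1, 44.4 and 36.7 CPM in the Fzd3 mutants and 23.0, 23.7 and 25.2 CPM in the Celsr3 mutants. Fzd3 libraries were highest and Celsr3 libraries lowest, without overlap between any of the genotypes, though only the Fzd3 difference from controls passed (log2 fold change 0.55 ± 0.09 SE, limma adjusted p = 0.00148, against log2 fold change -0.25 ± 0.09 SE, limma adjusted p = 0.780 for Celsr3). Cacna1h of the same type was at a log2 fold change of 0.14 ± 0.06 and the N-type channel Cacna1b at -0.02 ± 0.13 (SE), neither past the threshold. Pores other than those taken by the rule for named genes, and named here after their values were seen, that rose were Cacna1a, of the P/Q type (log2 fold change 0.38 ± 0.08), and the L-type pore Cacna1d (0.26 ± 0.06), both called in every fit. The L-type pore Cacna1c (log2 fold change 0.24 ± 0.08 SE, limma adjusted p = 0.0388) was called in 12 of 19 fits, and not without control replicate 1 (0.106), control replicate 3 (0.0954), Fzd3 mutant replicate 1 (0.154), Fzd3 mutant replicate 3 (0.0834) or Celsr3 mutant replicate 1 (0.0503), with the replicate block (0.0731) or without a variance trend (0.0770).

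Among HCN channels, Hcn2, Hcn3 and Hcn4 rose in Fzd3 mutants. Hcn2 was at 5.72, 5.27 and 6.35 CPM in the 3 control libraries, 12.6, 11.4 and 9.60 CPM in the Fzd3 mutants and 7.13, 6.59 and 4.86 CPM in the Celsr3 mutants. Its Fzd3 libraries stood above all others (log2 fold change 0.89 ± 0.15 SE, limma adjusted p = 0.00116). The more abundant Hcn3 (log2 fold change 0.35 ± 0.09 SE, limma adjusted p = 0.0122) and Hcn4 (log2 fold change 0.43 ± 0.09 SE, limma adjusted p = 0.00449) rose by smaller factors, and the Hcn3 call was lost without Fzd3 mutant replicate 1 (adjusted p = 0.0559) or replicate 2 (0.0522).

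**Figure D3:**
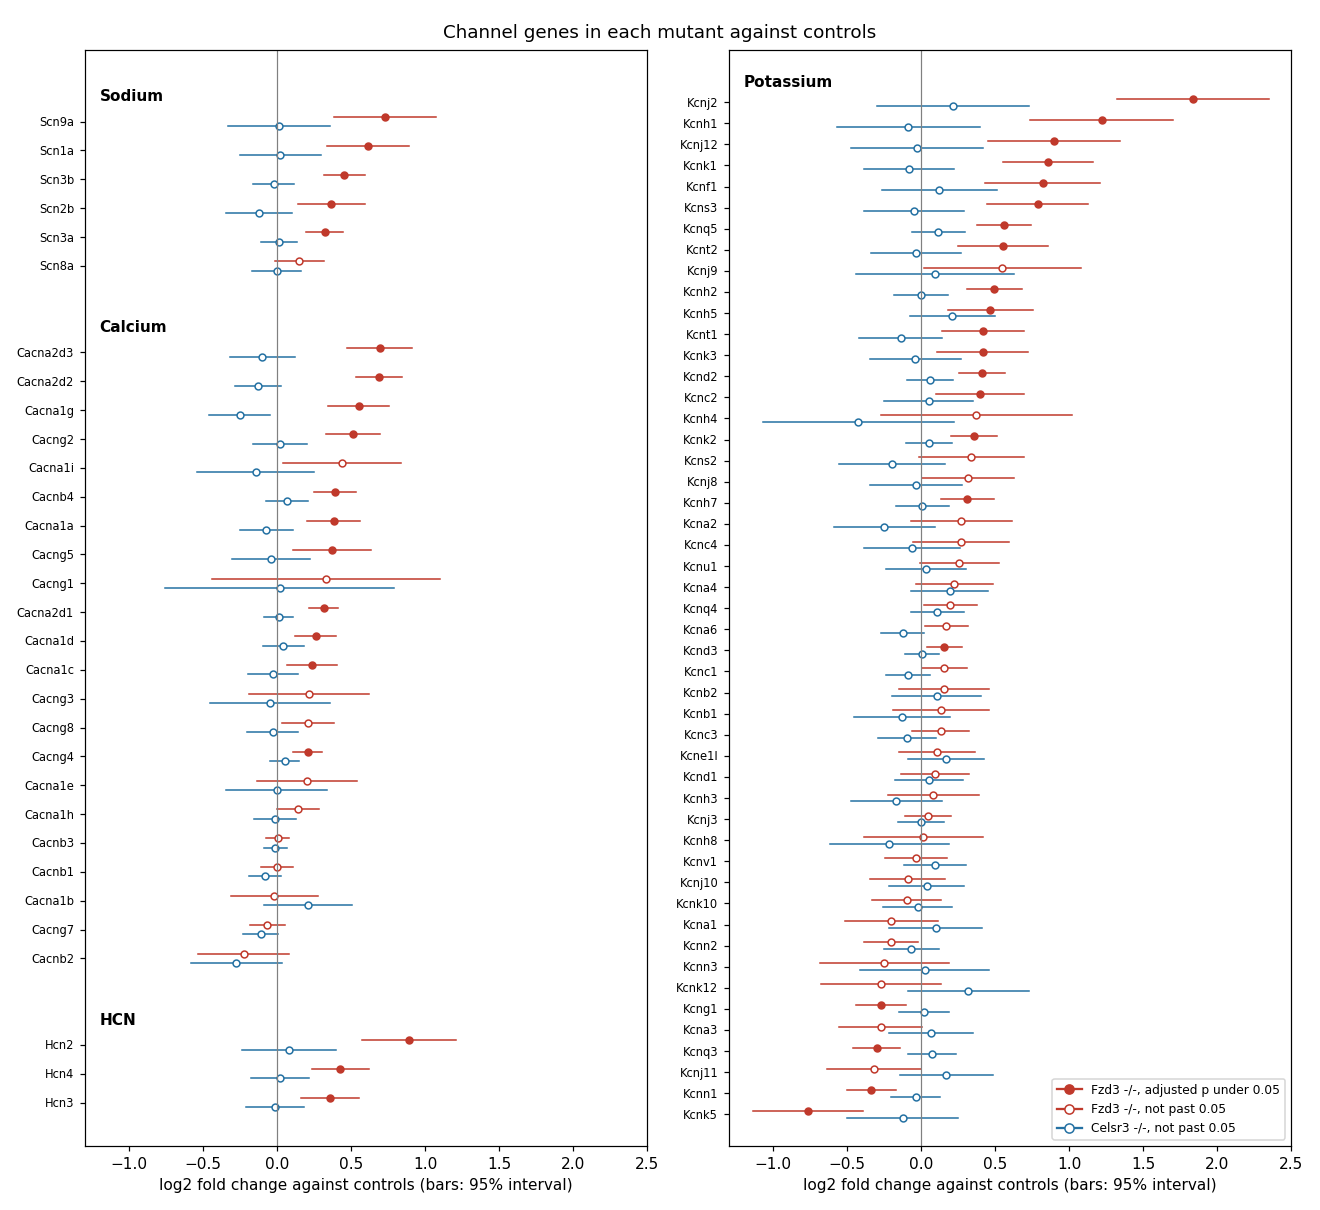
Log2 fold change of 80 of the 84 channel genes in Fzd3 mutants (red) and Celsr3 mutants (blue) against the same 3 controls, with 95% intervals from limma, filled where the adjusted p was under 0.05. Red points of the sodium, calcium and HCN genes lie mostly to the right of 0, potassium genes spread from -0.77 for Kcnk5 to 1.84 for Kcnj2, and no blue point is filled.

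Potassium channels held both the largest rise and all of the falls. Kcnj2, an inward rectifier that holds the resting potential near that of potassium, was at 6.15, 3.50 and 6.97 CPM in the 3 control libraries, 19.7, 22.0 and 19.4 CPM in the Fzd3 mutants and 8.90, 5.12 and 5.35 CPM in the Celsr3 mutants. The lowest Fzd3 library was well above the highest of the other 6 (log2 fold change 1.84 ± 0.23 SE, limma adjusted p = 0.000258), and the means differed 3.68-fold. Kcnj12, its close relative, was also higher (log2 fold change 0.90 ± 0.20, named after its values were seen), from means of 0.613 to 1.55 CPM. The remaining 5 inward rectifiers did not pass, though Kcnj11, named after its values were seen, was lower in limma without control replicate 3 (adjusted p = 0.0112).

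Subunits of the M-current did not move together. Kcnq3 was at 149.5, 169 and 142 CPM in the 3 control libraries, 124, 116 and 133 CPM in the Fzd3 mutants and 153, 175 and 156 CPM in the Celsr3 mutants. It fell in Fzd3 mutants, whose libraries were the lowest 3 of 9 (log2 fold change -0.30 ± 0.07 SE, limma adjusted p = 0.0104). Kcnq5, which also carries M-type current, rose, with every Fzd3 library above the other 6 (log2 fold change 0.56 ± 0.08 SE, limma adjusted p = 0.000658).

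Leak channels of the two-pore-domain family, which set the potassium leak, also parted. Kcnk1 was at 4.20, 4.09 and 6.20 CPM in the 3 control libraries, 8.64, 9.57 and 8.78 CPM in the Fzd3 mutants and 4.44, 4.57 and 4.33 CPM in the Celsr3 mutants. It rose in Fzd3 mutants (log2 fold change 0.85 ± 0.14 SE, limma adjusted p = 0.00115). Kcnk5, a channel activated by alkaline pH, was at 2.20, 2.46 and 1.48 CPM in the 3 control libraries, 0.952, 1.10 and 0.878 CPM in the Fzd3 mutants and 1.94, 1.83 and 1.64 CPM in the Celsr3 mutants. Its Fzd3 libraries were the lowest 3 of 9 (log2 fold change -0.77 ± 0.17 SE, limma adjusted p = 0.00630). Of the 6 genes of this family, 3 rose (2 under quantile normalization) and 1 fell.

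None of the 3 small-conductance channels opened by calcium (Kcnn) rose. Kcnn1 was at 16.1, 18.4 and 16.2 CPM in the 3 control libraries, 13.9, 13.2 and 12.6 CPM in the Fzd3 mutants and 16.6, 16.2 and 16.4 CPM in the Celsr3 mutants. It fell in Fzd3 mutants (log2 fold change -0.34 ± 0.08 SE, limma adjusted p = 0.00643), and the other 2 genes of the family were at log2 fold changes of -0.20 ± 0.08 for Kcnn2 and -0.25 ± 0.20 for Kcnn3 (SE), not past the threshold. Without control replicate 3 both passed in limma, Kcnn2 at an adjusted p of 0.0360 and Kcnn3 at 0.0460, and Kcnn2 also without Fzd3 mutant replicate 3 (0.0321). Kcnt2, opened by sodium, rose (log2 fold change 0.55 ± 0.14 SE, limma adjusted p = 0.0124).

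Among Kv channels, modifier subunits that form channels only with others gave both directions. Kcnf1 rose, from 3.85, 4.52 and 5.82 CPM in controls to 10.3, 8.85 and 6.99 CPM in Fzd3 mutants (log2 fold change 0.82 ± 0.18 SE, limma adjusted p = 0.00549). Kcng1 fell, from 20.3, 23.5 and 21.3 CPM to 18.2, 16.8 and 18.6 CPM (log2 fold change -0.27 ± 0.08 SE, limma adjusted p = 0.0214), a call lost without control replicate 2 (adjusted p = 0.0873) or Fzd3 mutant replicate 2 (0.0827), and when replicate was fitted as a block (0.0508). In the Kv4 family of A-type currents 2 of 3 genes rose. Kcnd2, named after its values were seen, was at a log2 fold change of 0.41 ± 0.07 (SE) and was called in every fit. Kcnd3 was at the edge of the threshold (log2 fold change 0.16 ± 0.05 SE, limma adjusted p = 0.0467) and lost its call without control replicate 1 (adjusted p = 0.118), control replicate 2 (0.167) or any 1 of the Fzd3 or Celsr3 libraries (0.0528 to 0.128). The Kcnd3 call was also lost in limma with the replicate block (adjusted p = 0.103), the 2 groups alone (0.0815), no variance trend (0.0712) and quantile normalization (0.0502). None of the 5 Kv1 and 2 Kv2 genes passed in either direction. Most of those are delayed rectifiers, which shape the mature action potential.

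Kcnh1 and Kcns3, chosen after their values were seen, rose from very low levels. Kcnh1 of the eag family was at 0.173, 0.213 and 0.477 CPM in the 3 control libraries, 1.79, 1.19 and 1.03 CPM in the Fzd3 mutants and 0.200, 0.163 and 0.342 CPM in the Celsr3 mutants. At the depth of these libraries 3 reads correspond to 0.0427 to 0.0752 CPM, so the control values rest on few reads, 9, 13 and 19, against 77, 55 and 54 in Fzd3 mutants (log2 fold change 1.22 ± 0.22 SE, limma adjusted p = 0.00205). All control and Celsr3 mutant values of Kcnh1 lay below 0.5 CPM, so it met the filter on low values only through the Fzd3 libraries. Its p-value is therefore no independent test of a rise. The modifier Kcns3 was at a log2 fold change of 0.79 ± 0.16. Of the 7 Kcnh genes 4 rose, Kcnh1 among them (3 under quantile normalization), and none fell.

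**Figure D4:**
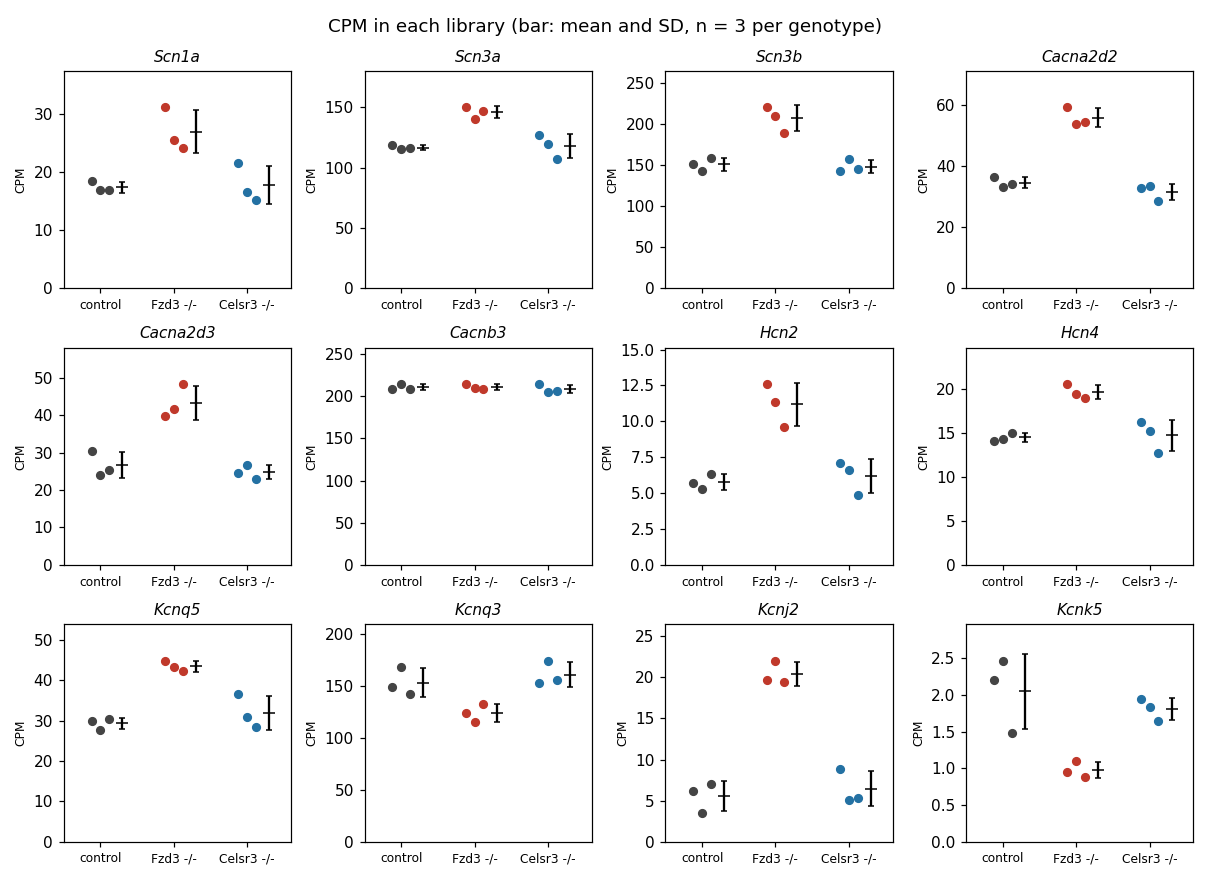
CPM of 12 channel genes in each of the 9 libraries, with mean and SD (n = 3 per genotype) on axes that start at 0. The 3 Fzd3 mutant libraries lie above both other genotypes for 9 of the 12, below them for Kcnq3 and Kcnk5, and among them for Cacnb3.

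In Celsr3 mutants no channel gene was called in either direction, where 0.13% of all genes were called higher and 0.177% lower by limma at an adjusted p under 0.05. At an unadjusted p under 0.05 there were 2 channel genes, Cacna1g among them, and 5.45% of all genes. The median log2 fold change was 0.00, and single genes lay between -0.43 for Kcnh4 and 0.32 for Kcnk12. The 95% interval of the difference was -0.30 to 0.73 for Kcnj2, -0.24 to 0.40 for Hcn2 and -0.16 to 0.11 for Scn3b, so differences within those bounds cannot be told from none. Every alternative fit also gave 0 calls.

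Cacna2d2 was the only channel gene within 10 Mb of a mutated gene. It lies at chr9:107399612-107529343 (GRCm38), 1.30 Mb from Celsr3, where chromosome segments of the strain that carried the targeted allele can persist. In Celsr3 mutants its log2 fold change was -0.13 ± 0.07 (SE, 95% interval -0.28 to 0.03, limma adjusted p = 0.970). Its rise was in Fzd3 mutants, whose mutated gene is on chromosome 14. Of the members on chromosome 14, Cacna1d, Cacna2d3 and Kcnk5, none lay within 10 Mb of Fzd3, the nearest being 34.7 Mb away.

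The 2 mutants were also set against each other, since both comparisons above share the control libraries. In Fzd3 mutants 42 channel genes were higher than in Celsr3 mutants, beside 15.3% of all genes, and 6 were lower, beside 14.3%. Their median log2 fold change was 0.30, against 0.00 over all genes. Kcnj2 (log2 fold change 1.62 ± 0.23 SE, limma adjusted p = 0.000660), Hcn2 (log2 fold change 0.81 ± 0.15 SE, limma adjusted p = 0.00214) and Cacna2d2 (log2 fold change 0.81 ± 0.07 SE, limma adjusted p = 3.44e-05) all differed directly between the mutants. The lower genes were Kcnk5, Kcnn1, Kcnq3 and Kcng1 again, with Kcnj11 (log2 fold change -0.49 ± 0.14 SE, limma adjusted p = 0.0250) and Kcnk12 (log2 fold change -0.59 ± 0.19 SE, limma adjusted p = 0.0338), the last 2 named after their values were seen. Kcnj11 and Kcnk12 were each not called without Celsr3 mutant replicate 2 (limma adjusted p = 0.0823 and 0.119), Celsr3 mutant replicate 4 (0.0817 and 0.0831), Fzd3 mutant replicate 2 (0.0798 and 0.123) or Fzd3 mutant replicate 3 (0.0518 and 0.0610). Kcng1 was not called without Celsr3 mutant replicate 1 (limma adjusted p = 0.0565) or Fzd3 mutant replicate 2 (0.0644). Without Fzd3 mutant replicate 2 the number of lower genes was 3. With the replicate number as a block the counts were 24 higher and 2 lower, and those over all 14670 genes went from 2247 to 1183 higher and from 2099 to 918 lower. In that fit Kcnk5 (limma adjusted p = 0.0749), Kcnn1 (0.107) and Kcng1 (0.0568) did not pass, nor did Kcnj11 (0.184) and Kcnk12 (0.125). The 2 lower genes there were Kcnq3 and Cacna1b, the latter called only with the block (log2 fold change -0.38, limma adjusted p = 0.0266).

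Proteins that accompany these channels, and channels the symbols do not take, were read from a list of 28, of which 25 were in the table. In Fzd3 mutants 14 of the 25 were higher and 0 lower, beside 15.0% and 14.8% of all genes, with a median log2 fold change of 0.38. Nalcn, the sodium leak channel, was at 10.9, 8.33 and 13.2 CPM in the 3 control libraries, 26.0, 22.4 and 20.7 CPM in the Fzd3 mutants and 11.1, 11.8 and 9.62 CPM in the Celsr3 mutants. It rose (log2 fold change 1.07 ± 0.15 SE, limma adjusted p = 0.000463), as did Kcnip4, a cytoplasmic partner of Kv4 channels (log2 fold change 1.06 ± 0.15 SE, limma adjusted p = 0.000520), and Kcnmb2, a beta subunit of the large-conductance potassium channel (log2 fold change 0.81 ± 0.16 SE, limma adjusted p = 0.00306). Scn2a1 was at 96.8, 81.2 and 96.4 CPM in the 3 control libraries, 146, 138 and 143 CPM in the Fzd3 mutants and 101, 95.1 and 77.7 CPM in the Celsr3 mutants and also rose (log2 fold change 0.64 ± 0.09 SE, limma adjusted p = 0.000590). The ankyrins Ank2 and Ank3, of which Ank3 anchors sodium channels at the axon, were at log2 fold changes of 0.07 ± 0.09 and -0.03 ± 0.10 (SE), not past the threshold. In Celsr3 mutants none of the 25 was called by limma, beside 0.13% of all genes called higher and 0.177% lower. At an unadjusted p under 0.05 there were 5, beside 5.45% of all genes, among them Kcnip4 (log2 fold change 0.55 ± 0.15 SE, limma adjusted p = 0.420).

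Markers of cell classes were read beside the 15.0% of all genes called higher and 14.8% called lower in Fzd3 mutants. Of 9 postmitotic neuron markers in the table, 6 were higher in Fzd3 mutants, including Nefl (log2 fold change 1.27 ± 0.09), Nefm (0.70 ± 0.07) and Syt1 (0.56 ± 0.09), while Map2, Dcx and Rbfox3 did not pass. The list summed to 5892, 5730.0 and 5846 CPM in controls, 6667, 6358 and 6502 CPM in Fzd3 mutants and 5971, 5817 and 5496 CPM in Celsr3 mutants, with Dcx the most abundant gene. Of 10 apical progenitor markers, 8 were lower, such as Pax6 (-0.70 ± 0.08) and Vim (-0.62 ± 0.06). Their sums were 1594, 1687 and 1603 CPM, 1184, 1248 and 1157 CPM and 1464, 1524 and 1607 CPM, led by Fabp7. All 5 basal progenitor markers were lower, with sums of 391, 415 and 346 CPM, 219.8, 239.6 and 275 CPM and 381, 434 and 440.1 CPM, led by Eomes. The part of these shifts in the channel results was not tested.

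Markers of rarer cells were read against the 15.0% of all genes called higher. In Fzd3 mutants 3 of 7 endothelial, 3 of 7 microglial, 3 of 5 oligodendrocyte precursor, 1 of 5 pericyte and 1 of 6 meningeal fibroblast markers were higher, with Pdgfra counted in both the precursor and the meningeal list. Endothelial markers, led by Kdr, summed to 102, 104 and 107 CPM in controls and 155, 145 and 135 CPM in Fzd3 mutants. Oligodendrocyte precursor markers, led by Pdgfra, summed to 29.4, 27.6 and 39.1 CPM and 71.2, 62.6 and 38.0 CPM. For microglia, led by Csf1r, the sums were 34.1, 40.0 and 38.1 CPM and 60.0, 56.2 and 42.2 CPM. Meningeal markers, led by Pdgfra, gave 27.5, 28.0 and 29.5 CPM and 53.6, 48.9 and 31.8 CPM, with every Fzd3 library above the controls. Pericyte markers, led by Rgs5, gave 78.9, 77.6 and 79.5 CPM and 96.2, 94.2 and 85.3 CPM.

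Interneuron markers held 1 higher gene of 10, Npy (log2 fold change 1.94 ± 0.13), and their sums, led by Dlx1, were 264, 265 and 299 CPM in controls and 369.8, 345 and 285 CPM in Fzd3 mutants. Regional markers are genes that a dissection could carry along. Beside 14.8% of all genes called lower, 1 of 5 striatal genes was higher and 1 lower, and 3 of 4 thalamic genes, Lhx9, Tcf7l2 and Lhx2, were lower, though Lhx2 is also a gene of cortical progenitors. Striatal markers, led by Ppp1r1b, summed to 41.6, 45.1 and 46.9 CPM in controls and 45.4, 42.7 and 40.7 CPM in Fzd3 mutants, and thalamic markers, led by Lhx2, to 239, 254 and 233 CPM and 209, 209 and 207 CPM. Of 6 red blood cell markers, led by Hba-a1, 1 was lower, with sums of 1765, 1917 and 2039 CPM and 2285, 2443 and 1569 CPM. None of the 5 choroid plexus markers was in the table. No marker of any list was called in Celsr3 mutants, where only 0.13% of all genes were called higher and 0.177% lower. The part of these lists in the channel results was not tested.

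**Figure D5:**
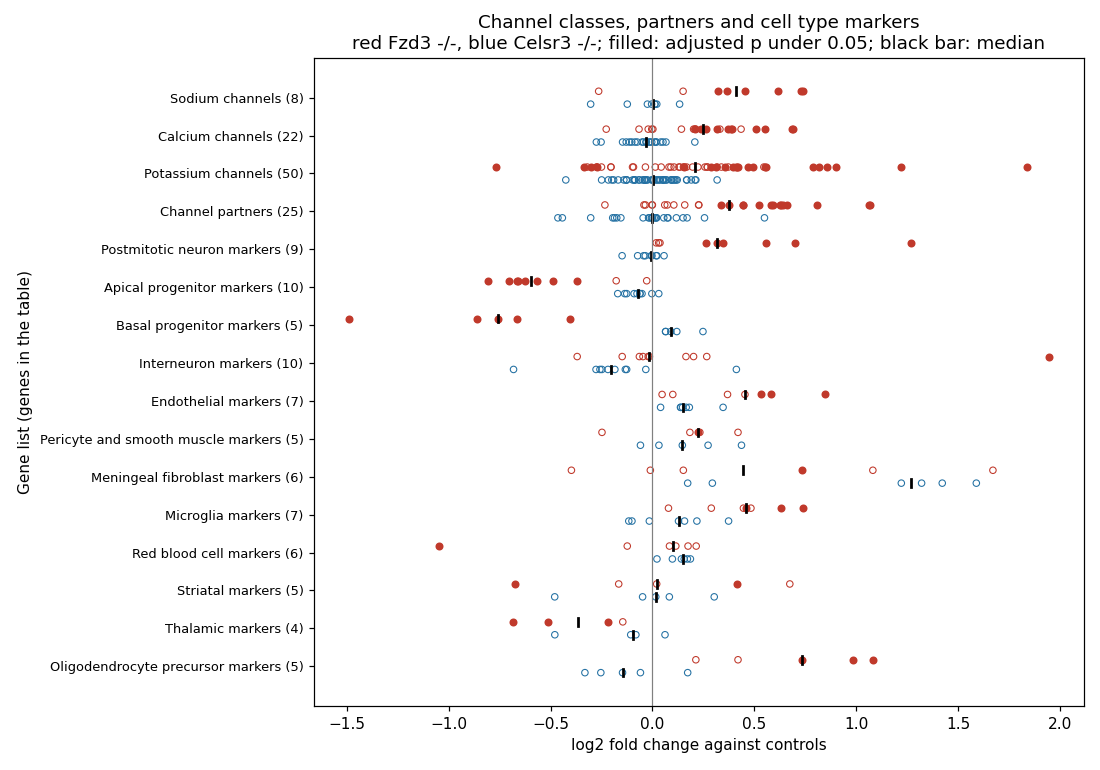
Log2 fold change against controls of every gene in the sodium, calcium and potassium classes, the partner list and the marker lists, in Fzd3 mutants (red) and Celsr3 mutants (blue), filled where the limma adjusted p was under 0.05, with the median as a black bar. In Fzd3 mutants the medians were 0.41 for sodium channels, 0.31 for postmitotic neuron markers, -0.59 for apical and -0.76 for basal progenitor markers.

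The median genomic span was 57.0 kb for the 84, against 22.1 kb for the 14397 genes with a position. It was 128 kb for the 39 that were higher in Fzd3 mutants and 32.9 kb for the 41 not past the threshold. The median control value of the 84 was 11.5 CPM, against 25.0 CPM for the 14397 genes with a position. It was 16.2 CPM for the 39 and 7.35 CPM for the 41 not past the threshold, so these groups also differed in level. Whether span or level had a part in the calls was not tested. The span of 15 of the 84 overlaps a gene on the opposite strand, Kcnn1, Kcnh1, Kcnq5, Cacng2 and Cacnb4 among them, and since strand use is not given in the sources used here, reads of such pairs cannot be told apart.

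Promoter sequence was examined for motifs common to channel genes that rose. RefSeq (GRCm38.p6) windows of the 250 bases before the transcription start were listed for 56 of the 84 genes, with 76 windows in all, since some genes have several. Both strands were searched for short motifs. The GC box (GGGCGG) stood in 47.4% of these windows and 32.7% of all 32851. The E-box CAGCTG stood in 27.6% against 13.0%, and the TATA box (TATAAA) in 2.63% against 12.4%. In windows of genes that rose, the E-box was in 28.6% and the GC box in 45.2%, beside 22.6% and 48.4% for genes not past the threshold. Windows of 1 gene can overlap and hold the same site: 4 of the 12 E-box windows of genes that rose are of Kcnc2, and 3 of these overlap. These shares are descriptions of letters and no test was made of them.

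Windows are shown for the gene of each class with the largest rise among those whose listed window begins outside the annotated gene: Kcnj2 (chr11:111065914-111066163, plus strand), Cacna2d3 (chr14:29721865-29722114, minus strand), Hcn2 (chr10:79716384-79716633, plus strand) and Scn9a (chr2:66634963-66635212, minus strand). Each is written 5′ to 3′ along the gene's strand and ends at the base before the start, and capitals mark GC boxes on either strand (GGGCGG or CCGCCC) and the E-box CAGCTG.
Kcnj2: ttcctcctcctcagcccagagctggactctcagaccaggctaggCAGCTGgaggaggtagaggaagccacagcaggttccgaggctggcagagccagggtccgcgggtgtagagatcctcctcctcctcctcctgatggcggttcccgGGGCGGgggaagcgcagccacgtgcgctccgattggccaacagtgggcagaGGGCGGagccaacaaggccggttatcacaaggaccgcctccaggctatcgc
Cacna2d3: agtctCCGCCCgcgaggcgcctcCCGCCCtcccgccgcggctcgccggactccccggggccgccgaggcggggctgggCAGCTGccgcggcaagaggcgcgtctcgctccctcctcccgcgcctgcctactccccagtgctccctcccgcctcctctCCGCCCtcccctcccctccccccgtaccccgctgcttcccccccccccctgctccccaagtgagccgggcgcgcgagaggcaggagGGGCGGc
Hcn2: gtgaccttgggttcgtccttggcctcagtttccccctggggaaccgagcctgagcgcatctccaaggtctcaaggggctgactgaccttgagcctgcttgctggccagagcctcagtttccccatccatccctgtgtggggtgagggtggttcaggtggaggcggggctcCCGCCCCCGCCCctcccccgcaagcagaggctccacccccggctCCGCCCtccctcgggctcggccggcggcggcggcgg
Scn9a: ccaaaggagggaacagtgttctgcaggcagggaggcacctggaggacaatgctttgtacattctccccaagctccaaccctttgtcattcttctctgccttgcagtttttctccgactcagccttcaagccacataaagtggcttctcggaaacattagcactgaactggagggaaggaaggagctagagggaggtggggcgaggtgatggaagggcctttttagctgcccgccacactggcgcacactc
Kcnj2 has 2 GC boxes and 1 E-box, Cacna2d3 has 4 and 1, Hcn2 has 3 GC boxes and no E-box, and Scn9a has neither. The bases G and C make up 80.0% of the Cacna2d3 window and 54.4% of that of Scn9a.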

How the data were processed

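Cortices were dissected from control, Fzd3 -/- and Celsr3 -/- embryos, and RNA was extracted with Trizol per the labels or an RNeasy kit per the methods. Libraries were sequenced by a company with Illumina protocols. The submitters' processing notes name FastQC, TopHat, TopHat2, Bowtie, Cufflinks 2.1.1, edgeR 2.12 and the builds GRCm38 and GRCh37, with no role given. The authors deposited CPM per gene, with no counts. Each value was a whole multiple, within 0.1 of a step, of the library's smallest step, which gave the depth, and a floor of 3 reads covers counting error only.

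Differences were tested with limma 3.58.1 in R 4.3.3 on log2(CPM + 0.5), with all 9 libraries in 1 fit, a variance trend, 2-sided tests and Benjamini-Hochberg adjustment over 14670 genes at 0.05, after tests on simulated data. Groups follow the labels. Replicate pairs differed by more than counting noise, so no library is a copy of another, which does not show that they are independent. Exon length and position came from GENCODE M21 (GRCm38), matched for 14397 genes and all 84 channel genes. Python 3.11.15, pandas 2.3.3, numpy 2.4.6 and scipy 1.17.1 made the summaries.

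The channel genes, lists and families were chosen with earlier results of these data known. Named genes were, per class, the 3 with the highest control CPM and up to 5 risers and 5 fallers with the largest fold change in Fzd3 mutants (adjusted p under 0.05, mean of at least 1 CPM), the genes within 10 Mb of a mutated gene, the mutated genes and up to 3 partners each way, of which a few are left out of the text and plots. Marker lists were written from known cell type markers, and the results name only some of their members. Alternatives were other pseudocounts, filters, scalings, the 2 groups alone, a replicate block, no variance trend and leaving out each library. Protein sequence features were not analysed here.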

Additional observations from a re-analysis of the deposited data

How the results depend on the processing

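Counts of channel genes kept within 1.5 times their value under pseudocounts of 0.1 and 1, a mean of at least 5 CPM, both scalings, the 2 groups alone and no variance trend. The fit without a filter tested the same genes, since none was removed, and so repeats the first. Leaving out 1 library at a time gave 29 to 37 higher and 3 to 8 lower in Fzd3 mutants than in controls, 31 to 43 higher and 3 to 6 lower than in Celsr3 mutants, and 0 to 0 either way in Celsr3 mutants against controls. Of the 43 channel genes called in Fzd3 mutants against controls, 29 higher and 3 lower were called in every one of the 19 fits that tested them, and no call changed direction in any fit. The 11 others lost their call in at least 1 fit, most often Kcnd3, Kcnc2, Kcnk3 and Cacna1c.

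With the replicate number as a block, Fzd3 mutants had 24 genes higher and 2 lower than Celsr3 mutants (1183 and 918 of all 14670 genes, against 2247 and 2099 without the block), which share only replicates 1 and 2 and leave fewer samples, and 0 in each direction in Celsr3 mutants against controls. Deviations of same-numbered libraries correlated at -0.0697, -0.154 and -0.199 between control and Fzd3 libraries, 0.0728 and -0.0132 between control and Celsr3 libraries, and 0.192 and -0.0799 between Fzd3 and Celsr3 libraries, where differently numbered pairs reached 0.188, so the values give no sign that a shared number pairs the libraries. The Celsr3 transcript in Celsr3 mutants was at an adjusted p of 0.0699 with the block (limma).

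Of 63 differences past the threshold among genes taken by the rule for names, 47 passed in every alternative, 16 were lost in at least 1 and 0 reversed. Among their differences not past it, 51 values changed sign in an alternative, all within 0.213 of 0 on the log2 scale. By CPM as deposited, 9 of the 10 highest channel genes were the same as per kb of exon. An order by coding length and protein motifs were not run. With 3 libraries a genotype and a low level, as for Kcnh1, small differences could not be detected.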

Other observations

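Pumps, cotransporters, chloride channels and TRP channels were read by symbol from the same fit, in families chosen after the channel results were seen. In Fzd3 mutants 17 of 34 such genes were higher and 3 lower than in controls, beside 15.0% and 14.8% of all genes, with a median log2 fold change of 0.25. The sodium pump, which restores the gradients that channels spend, had 4 of 6 subunits higher and 1 lower. Its beta subunit Atp1b1 was at 49.4, 37.7 and 54.2 CPM in the 3 control libraries, 97.5, 99.0 and 82.2 CPM in the Fzd3 mutants and 49.8, 45.0 and 36.6 CPM in the Celsr3 mutants (log2 fold change 0.98 ± 0.14 SE, limma adjusted p = 0.000469). Another beta subunit, Atp1b3, went the other way (log2 fold change -0.24 ± 0.06 SE, limma adjusted p = 0.0119).

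Of 4 plasma membrane calcium pumps, 3 were higher, led in size by Atp2b3 (log2 fold change 0.55 ± 0.13 SE, limma adjusted p = 0.00964). Chloride cotransporters set whether GABA excites or inhibits immature neurons. Slc12a2, the importer, was at 64.1, 64.3 and 57.2 CPM in the 3 control libraries, 78.3, 82.1 and 79.6 CPM in the Fzd3 mutants and 57.3, 62.8 and 63.1 CPM in the Celsr3 mutants and was higher in Fzd3 mutants (log2 fold change 0.37 ± 0.06 SE, limma adjusted p = 0.000937), whereas the exporter Slc12a7 was lower (log2 fold change -0.38 ± 0.06 SE, limma adjusted p = 0.00119). The neuronal exporter Slc12a5 was not among the genes analysed here. TRP channels held 6 higher and 1 lower of 12. Trpc4 was at 8.96, 7.80 and 9.88 CPM in the 3 control libraries, 25.6, 21.7 and 19.8 CPM in the Fzd3 mutants and 11.4, 9.34 and 7.45 CPM in the Celsr3 mutants. The Fzd3 libraries lay above all others (log2 fold change 1.28 ± 0.15 SE, limma adjusted p = 0.000144). Of 6 chloride channels of the Clcn family 1 was higher and 0 lower, with a median log2 fold change of 0.07. These family counts stand beside 15.0% of all genes called higher and 14.8% called lower. None of the 34 was called in Celsr3 mutants by limma, where only 0.13% of all genes were called higher and 0.177% lower.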
